A study of Mus musculus with 6 samples.

Results

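The genes of glucose handling were followed in 3T3-L1 cells, an established mouse preadipocyte line that stores fat once differentiated, with and without an extract of Tsuruazuki ("Tsuru"). A list of 36 genes was taken in 4 branches: glucose transport with lactate export, glycolysis, the pentose phosphate pathway and glycogen metabolism. A gene was kept where the authors' deposited table gave its symbol alone for a transcript cluster, the array's gene-level probe set. This found 34 of the 36 genes among 22206 clusters, each with a single such cluster: 3 of 3 in the transport branch, 18 of 19 in glycolysis, 6 of 7 in the pentose phosphate branch and 7 of 7 in the glycogen branch. Eno1 and Tkt share their clusters with another symbol and were not analysed here.

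Total RNA from 2 groups of 3 samples was read on Clariom S mouse arrays. In the Tsuru group, cells received an adipogenic mixture of IBMX, insulin and dexamethasone together with the extract after reaching confluence, were changed to insulin medium at day 3 and were collected at day 9. In the Medium group no extract was given. Per the treatment protocol these controls went through the same induction, while their titles say only that they were maintained in medium. The protocol names 1 in 1000 and 1 in 100 dilutions of a 100 mg/ml stock without stating the dilution used for the arrays. Nothing states that the 3 samples of a group were separate cultures, so each p-value reflects sample-to-sample spread alone, and that spread could be technical.

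Glucose enters fat cells through facilitative transporters, of which GLUT4, encoded by Slc2a4, is stored inside the cell and moved to the surface by insulin, while GLUT1, encoded by Slc2a1, carries basal uptake. Hexokinase traps the sugar as glucose-6-phosphate, which then goes down glycolysis to pyruvate and lactate, through the pentose phosphate pathway to NADPH and ribose, or into glycogen. In adipocytes glycolysis supplies acetyl units and the glycerol backbone for fat, and the oxidative pentose phosphate steps supply NADPH for fatty acid synthesis.

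Adipocyte transcripts were measured in both groups: 9 of 10 adipocyte markers lay above the array's background sets on all 6 arrays, and leptin (Lep) lay at or below them on all 6. The preadipocyte marker Dlk1 had mean log2 signals of 17.37 in Tsuru arrays and 17.35 in Medium arrays. Of 7 matched preadipocyte and fibroblast markers, 4 had a higher mean in Tsuru arrays and 3 a lower one. Their log2 differences ran from -0.38 (Cd34) to 0.12 (Pdgfrb). Among markers of other cells, 3 of 4 endothelial genes and 1 of 6 macrophage genes, Csf1r, lay at or below background on every array. So did 1 of 5 skeletal muscle genes and 0 of 4 liver genes. Above background on all 6 arrays were 3 of 6 macrophage, 3 of 5 skeletal muscle, 3 of 4 liver and 0 of 4 endothelial genes. The summed log2 signal of 6 macrophage markers was 29.47 to 31.20 in Tsuru arrays and 31.27 to 34.94 in Medium arrays. In Tsuru arrays 4 of the 6 had a lower mean, and 2, Cd68 (by 0.33) and Ptprc (by 0.08), a higher one. By limma, 2 of the 6 (33.3%), Lyz2 and Mrc1, were lower at an unadjusted p under 0.05, where 5.38% of all clusters were. Their adjusted p-values were 0.413 and 0.393, and in both the groups overlap. The part of these markers in the results was not tested. Medium replicate 1 stood apart: its mean correlation with the other arrays was 0.9868, against 0.9906 to 0.9918 for the rest. Its summed log2 signal over 10 interferon response genes was 102.41, where the other Medium arrays had 62.77 and 76.09 and the Tsuru arrays had 59.40, 72.49 and 77.93. Of the 34 genes, those called and those whose difference moved by over 1.5 times without it are therefore also given without it. In RNA from whole wells, fewer cells of a type and less RNA per cell cannot be told apart.

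Promoter sequences of 5 of the genes are shown because they mark 3 kinds of member: 3 of the 5 genes with a higher mean signal in Tsuru arrays at an unadjusted p under 0.05 (Slc2a1, Pgam1 and Gys1), a member with small but non-overlapping groups (Pgk1), and a member whose groups had almost the same mean (Ldha). Each is the 250 bases before the gene's start in RefSeq, build GRCm38.p6, written 5′ to 3′. Capitals mark ACGTG or its reverse complement CACGT, the form of the hypoxia response element core that starts with A, and CACGTG, an E-box that holds both. The form that starts with G, GCGTG, was not searched for and stands unmarked where it occurs.
Slc2a1, chr4:119108495-119108744, plus strand: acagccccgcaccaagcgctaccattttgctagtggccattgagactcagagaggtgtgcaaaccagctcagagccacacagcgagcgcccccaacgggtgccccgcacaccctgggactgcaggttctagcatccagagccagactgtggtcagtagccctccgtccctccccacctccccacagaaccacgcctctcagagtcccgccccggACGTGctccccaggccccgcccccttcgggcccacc
Pgam1, chr19:41911621-41911870, plus strand: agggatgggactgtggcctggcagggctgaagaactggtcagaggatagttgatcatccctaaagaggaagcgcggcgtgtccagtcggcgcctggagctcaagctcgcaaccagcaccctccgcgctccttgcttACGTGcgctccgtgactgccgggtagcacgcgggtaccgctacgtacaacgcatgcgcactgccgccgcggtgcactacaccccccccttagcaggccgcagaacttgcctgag
Gys1, chr7:45434589-45434838, plus strand: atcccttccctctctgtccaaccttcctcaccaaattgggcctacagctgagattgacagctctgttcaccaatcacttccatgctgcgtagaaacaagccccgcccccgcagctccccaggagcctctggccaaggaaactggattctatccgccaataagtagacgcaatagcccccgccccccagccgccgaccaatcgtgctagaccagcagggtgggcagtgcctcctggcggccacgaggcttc
Pgk1, chrX:106186850-106187099, plus strand: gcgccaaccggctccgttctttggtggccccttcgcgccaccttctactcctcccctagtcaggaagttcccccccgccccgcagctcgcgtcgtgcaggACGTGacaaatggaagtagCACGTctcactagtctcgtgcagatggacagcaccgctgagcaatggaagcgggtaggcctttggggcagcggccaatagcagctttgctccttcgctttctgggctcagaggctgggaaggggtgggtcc
Ldha, chr7:46845554-46845803, plus strand: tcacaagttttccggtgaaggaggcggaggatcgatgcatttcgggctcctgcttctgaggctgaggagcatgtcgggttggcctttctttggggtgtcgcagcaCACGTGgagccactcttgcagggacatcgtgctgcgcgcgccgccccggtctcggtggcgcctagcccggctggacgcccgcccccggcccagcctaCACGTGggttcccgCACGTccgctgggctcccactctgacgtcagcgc
The marked letters occur at 1 place in the Slc2a1 window, at 1 in that of Pgam1, at 2 in that of Pgk1 and at 3 in that of Ldha, where 2 of the places are the E-box. They are not in the Gys1 window, nor in those of Hk1 and Rpe, the other called genes, so 2 of the 5 called genes hold them. For Ldha the table holds 2 promoters, and the window printed is the one with matches. Of the 34 genes, 33 had a promoter in the table (Slc2a4 is named only), and 13 of these 33 held ACGTG or CACGT in at least 1 of their promoters. Counted by promoter, 16 of 45 windows of these genes, or 35.6%, held either, against 5444 of 32851, or 16.6%, of all promoters in the table. The E-box was in 3 of the 45, or 6.67%, against 6.02% of all. A match describes letters in a window; the arrays measured transcripts and not binding.

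Taken over the 34 genes, small positive differences were common, and none passed correction for all clusters. On the log2 scale, 27 of 34 genes had a higher mean in Tsuru arrays and 7 a lower one, with a median difference of 0.19, against 0.00 over all 22206 clusters. By limma, with p-values adjusted after Benjamini and Hochberg over all clusters, 0 of the 34 reached an adjusted p under 0.05, the lowest being 0.374, and the background was also 0% of all clusters. At an unadjusted p under 0.05, 5 of 34 genes (14.7%) were higher in Tsuru arrays: Slc2a1, Hk1, Pgam1, Rpe and Gys1. The background for that call is 5.75% of all clusters, and 0 of 34 were lower, where the background is 5.38%. Over both directions 11.1% of all clusters pass.

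Brighter clusters as a whole also had more positive than negative differences, and the size of this depended on the scaling. Among the 9914 clusters with a mean log2 signal of at least 6, the median difference was 0.10, 64.5% were positive and 9.92% were higher at an unadjusted p under 0.05. Of the list, 30 genes had a mean that rounds to 6.0 or more. They had a median of 0.21, with 26 positive and the same 5 called, or 16.7%. Gyg, 1 of the 30, lies just under 6 before rounding. With Gyg also left out, the median was 0.22, with 25 positive. With cyclic loess the median was -0.00 over clusters at that level and 0.11 over the 34 genes, and with quantile normalization it was 0.02 and 0.12. Of the 4 dimmer genes, which are Slc16a3, Aldoc, Eno2 and Pygl, 3 were negative and none was called. The 3 Tsuru values lay wholly above the 3 Medium values for 7 of 34 genes (20.6%), where the background is 9.06%, and wholly below for 0, where it is 7.75%. All 7 are among the 30 brighter genes (23.3%), and 14.8% of all clusters at that level had Tsuru values wholly above. These 7 were the 5 called genes, Pgk1 and Gbe1.

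**Figure D1:**
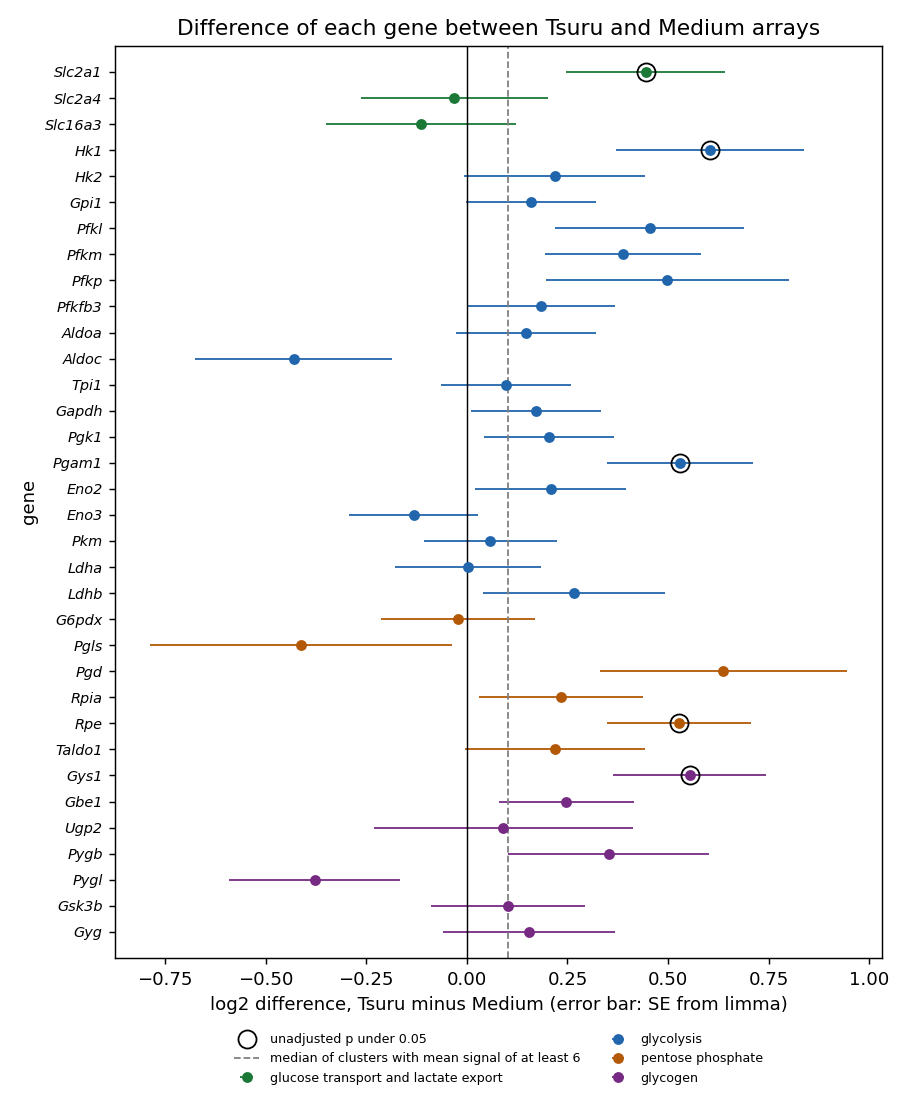
Log2 difference, Tsuru minus Medium, for each of the 34 genes, coloured by branch, with the standard error from limma as the bar. Circles mark the 5 genes at an unadjusted p under 0.05, Slc2a1, Hk1, Pgam1, Rpe and Gys1, and the dashed line is the median of 0.10 over clusters with a mean log2 signal of at least 6.

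In the transport branch, Slc2a1 had the higher mean in Tsuru arrays and Slc2a4 did not. Slc2a1, the basal glucose transporter gene, read 17.34, 16.95 and 17.01 on the log2 scale in Tsuru arrays, against 16.35, 16.85 and 16.78 in Medium arrays. The groups do not overlap, although the gap between Tsuru replicate 2 and Medium replicate 2 is narrow and Medium replicate 1 lies far below the rest. The difference was 0.44 ± 0.20 (SE), a fold of 1.36, with an unadjusted p of 0.0478 and an adjusted p of 0.444. It became 0.29 without Medium replicate 1, and the unadjusted p was at or above 0.05 without that array or without any of the Tsuru arrays. With all 6 arrays it was also at or above 0.05 under cyclic loess (0.0582), array weights (0.0546), the replicate block (0.0671) and without the empirical Bayes step (0.0875).

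Slc2a4, the insulin-responsive transporter gene, read 7.84, 7.30 and 7.58 in Tsuru arrays, against 8.04, 7.50 and 7.26 in Medium arrays. The groups cover each other. Its difference was -0.03 ± 0.23 (SE), with a 95% interval from -0.55 to 0.49, so a difference of either sign up to about that size is not excluded by these arrays. In the authors' deposited table the same cluster had group averages of 7.57 for Tsuru and 7.11 for control, a fold of 1.37 with p = 0.489. Slc16a3, which encodes a lactate exporter, stood near background, above it on 4 of 6 arrays, and differed by -0.11 ± 0.24. Without Medium replicate 1 the differences of Slc2a4 and Slc16a3 were 0.19 and -0.05.

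Glycolysis held 18 measured genes, 16 of them positive, with a median difference of 0.19. Hexokinase, the step that traps glucose, was read by 2 genes. Hk1, the form found in most tissues, read 14.72, 14.79 and 14.73 in Tsuru arrays, against 13.67, 14.11 and 14.64 in Medium arrays. The Tsuru values have an SD of 0.03 and the Medium values an SD of 0.49, and Medium replicate 3 comes close to the Tsuru arrays. The difference of 0.60 ± 0.23 (SE) is a fold of 1.52, with an unadjusted p of 0.0277 and an adjusted p of 0.411. Leaving out Medium replicate 1 gave 0.37, and Hk1 held its call in only 1 of the 6 fits that each leave out an array, the fit without Medium replicate 3. Its call was also lost without the empirical Bayes step, at an unadjusted p of 0.0978. Hk2, the form that insulin induces in muscle and fat, differed by 0.22 ± 0.23, with overlapping groups, and by 0.07 without Medium replicate 1.

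The genes for phosphofructokinase, the committed step of glycolysis, shared a layout across the Medium arrays. Pfkl, the liver-type subunit gene, read 14.53, 14.25 and 14.35 in Tsuru arrays, against 13.52, 13.81 and 14.43 in Medium arrays. Pfkp, the platelet-type subunit gene, read 12.49, 12.64 and 12.81 in Tsuru arrays, against 11.58, 11.96 and 12.92 in Medium arrays. Pfkm, the muscle-type subunit gene, read 9.36, 9.19 and 9.13 in Tsuru arrays, against 8.56, 8.80 and 9.17 in Medium arrays. For each of these 3 genes the Medium array of replicate 1 was the lowest of all 6, and that of replicate 3 lay inside or above the Tsuru values. The differences were 0.45 ± 0.23 (SE) for Pfkl, 0.50 ± 0.30 for Pfkp and 0.39 ± 0.19 for Pfkm, with unadjusted p-values of 0.0823, 0.13 and 0.0737. Without Medium replicate 3 they were 0.71, 0.88 and 0.55, with adjusted p-values of 0.138, 0.105 and 0.207, and without Medium replicate 1 they were 0.25, 0.21 and 0.25. Pfkfb3, whose enzyme makes the phosphofructokinase activator, differed by 0.18 ± 0.18.

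In lower glycolysis Pgam1 was the called gene. Pgam1, which encodes phosphoglycerate mutase, read 14.99, 14.95 and 15.19 in Tsuru arrays, against 14.26, 14.56 and 14.74 in Medium arrays. Every Tsuru value is above every Medium value, and the difference was 0.53 ± 0.18 (SE), a fold of 1.44, with an unadjusted p of 0.0157 and an adjusted p of 0.374. Its unadjusted p was at or above 0.05 without Medium replicate 1, where the difference was 0.40, and without Tsuru replicate 3, where it was 0.46. Pgk1, the phosphoglycerate kinase gene, read 17.93, 17.98 and 17.95 in Tsuru arrays, against 17.58, 17.86 and 17.81 in Medium arrays, and differed by 0.21 ± 0.16 with groups that do not overlap, or by 0.12 without Medium replicate 1. Gapdh, which encodes the dehydrogenase between aldolase and phosphoglycerate kinase and is often used as a loading control, read 18.88, 18.86 and 18.70 in Tsuru arrays, against 18.68, 18.73 and 18.52 in Medium arrays, a difference of 0.17 ± 0.16.

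The rest of the pathway had small differences. Gpi1 (glucose phosphate isomerase) differed by 0.16 ± 0.16 (SE), Aldoa (aldolase A) by 0.15 ± 0.17 and Tpi1 (triosephosphate isomerase) by 0.10 ± 0.16. Pkm, the pyruvate kinase gene, read 18.14, 18.14 and 18.23 in Tsuru arrays, against 17.91, 18.21 and 18.22 in Medium arrays, and differed by 0.06 ± 0.17. Ldha, which encodes the main lactate dehydrogenase subunit of glycolytic tissue, read 17.07, 16.91 and 16.67 in Tsuru arrays, against 16.97, 17.01 and 16.67 in Medium arrays. Those groups overlap throughout, and the difference was 0.00 ± 0.18, with a 95% interval from -0.40 to 0.41. Ldhb, the other subunit gene, differed by 0.27 ± 0.23. Without Medium replicate 1 the differences of Tpi1, Pkm and Ldha were 0.02, -0.04 and 0.04.

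The tissue-restricted forms were not called. Aldoc, the brain-type aldolase gene, lay above the background sets on 3 of 6 arrays and had the most negative difference of the 34 genes, -0.43 ± 0.24 (SE), with overlapping groups. Eno2, the neuronal enolase gene, differed by 0.21 ± 0.19 (0.09 without Medium replicate 1), and Eno3, the muscle enolase gene, by -0.13 ± 0.16. The array's negative control sets averaged a log2 signal of 5.87, and its background sets 4.57. Both group means of Aldoc, Slc16a3, Eno2 and Pygl lie under the average of the negative control sets.

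**Figure D2:**
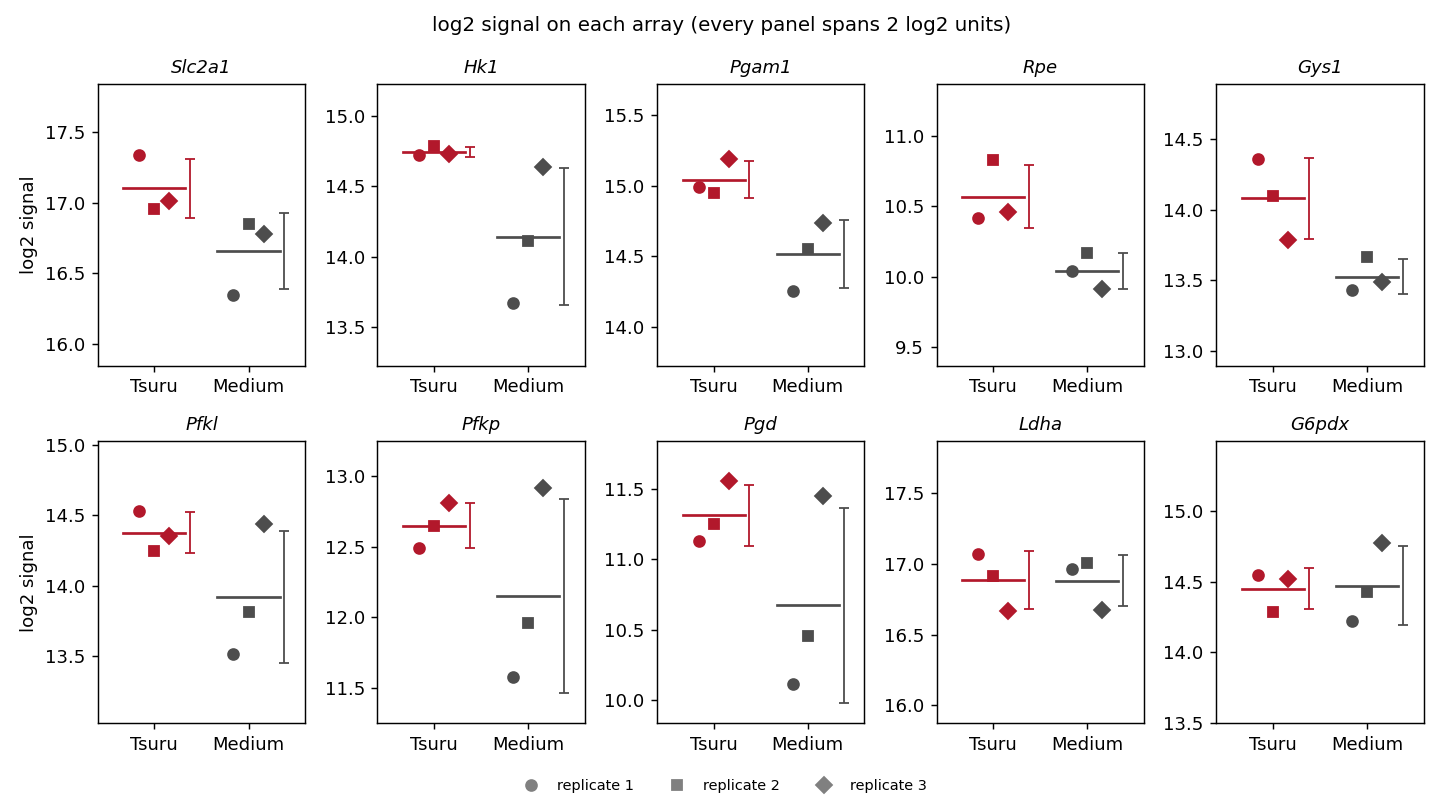
Log2 signal on each array for 10 of the genes, with Tsuru on the left and Medium on the right of each panel; the line is the group mean, the bar beside it is 1 SD, and marker shapes give the replicate. In the upper row, Slc2a1, Hk1, Pgam1, Rpe and Gys1, no Tsuru value falls among the Medium values, while for Pfkl, Pfkp and Pgd the Medium replicate 3 array reaches the Tsuru values.

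In the pentose phosphate branch, 1 of 6 measured genes (16.7%) was called, and neither dehydrogenase that makes NADPH was. The background for a higher call is 5.75% of all clusters and 9.92% of those with a mean log2 signal of at least 6. G6pdx, which encodes the dehydrogenase that commits glucose-6-phosphate to this pathway and makes its first NADPH, read 14.55, 14.28 and 14.52 in Tsuru arrays, against 14.22, 14.43 and 14.77 in Medium arrays. Its groups overlap throughout and the difference was -0.02 ± 0.19 (SE), or -0.15 without Medium replicate 1. Pgd, whose product makes the other NADPH of the pathway, read 11.13, 11.25 and 11.55 in Tsuru arrays, against 10.12, 10.45 and 11.45 in Medium arrays. It had the most positive difference of the 34 genes, 0.64 ± 0.31, a fold of 1.56, with an unadjusted p of 0.0646 and an adjusted p of 0.472. As with the phosphofructokinase genes, Medium replicate 1 was lowest and Medium replicate 3 fell among the Tsuru arrays. Without Medium replicate 3 the difference of Pgd was 1.02, with an adjusted p of 0.0812, and without Medium replicate 1 it was 0.36.

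Rpe was the called gene of this branch. It encodes the epimerase that turns ribulose phosphate into xylulose phosphate in the non-oxidative arm, and read 10.42, 10.83 and 10.46 in Tsuru arrays, against 10.04, 10.17 and 9.91 in Medium arrays. The groups are apart, and Medium replicate 1 is the middle value of its group here. The difference was 0.53 ± 0.18 (SE), a fold of 1.44, with an unadjusted p of 0.0146 and an adjusted p of 0.374. It stayed at 0.53 without Medium replicate 1, and only the fit without Tsuru replicate 2, of the 6 that leave out an array, gave an unadjusted p at or above 0.05, with a difference of 0.40. Under cyclic loess with all 6 arrays the difference was also 0.40, at an unadjusted p of 0.0574. Rpia, the isomerase gene that makes ribose phosphate, differed by 0.23 ± 0.20 and Taldo1, the transaldolase gene, by 0.22 ± 0.22 (0.35 without Medium replicate 1).

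Pgls, which encodes the lactonase between both dehydrogenases, had a sign that rested on a single array. It read 9.16, 9.36 and 9.10 in Tsuru arrays, against 9.19, 10.68 and 8.99 in Medium arrays, where replicate 2 lies well over 1 log2 unit above every other array. The difference of -0.41 ± 0.37 (SE) became 0.12 without that array, and -0.63 without Medium replicate 1. The median of the 6 measured genes of the branch was 0.23, with 4 positive.

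In the glycogen branch, the synthase gene had a higher mean in Tsuru arrays. Gys1, which encodes the glycogen synthase of muscle and fat, read 14.36, 14.09 and 13.79 in Tsuru arrays, against 13.43, 13.67 and 13.48 in Medium arrays. The groups do not overlap, and the Medium values are closer together than the Tsuru values. The difference was 0.55 ± 0.19 (SE), a fold of 1.47, with an unadjusted p of 0.0156 and an adjusted p of 0.374. It was 0.50 without Medium replicate 1, and the unadjusted p reached 0.0761 without Tsuru replicate 1, where the difference was 0.41.

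The other genes of glycogen assembly had smaller differences. Gbe1, the branching enzyme gene, read 9.00, 9.08 and 8.95 in Tsuru arrays, against 8.55, 8.85 and 8.89 in Medium arrays. These groups are apart by a narrow gap, and the difference was 0.25 ± 0.17 (SE), or 0.14 without Medium replicate 1. Ugp2, whose product makes the UDP-glucose used by the synthase, read 11.57, 11.56 and 10.95 in Tsuru arrays, against 11.64, 11.69 and 10.48 in Medium arrays, with replicate 3 low in both groups. Its difference was 0.09 ± 0.32, or 0.28 without Medium replicate 1. Gyg, the glycogenin gene that primes the chain, differed by 0.15 ± 0.21 (0.24 without Medium replicate 1), and Gsk3b, which encodes a kinase that inhibits the synthase, by 0.10 ± 0.19.

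On the side of breakdown, Pygb, the brain-type phosphorylase gene, read 11.16, 10.83 and 11.31 in Tsuru arrays, against 10.22, 11.15 and 10.87 in Medium arrays. Its difference of 0.35 ± 0.25 (SE) was 0.09 without Medium replicate 1. Pygl, the liver-type gene, read 4.77, 4.95 and 4.71 in Tsuru arrays, against 5.09, 4.86 and 5.61 in Medium arrays, a difference of -0.38 ± 0.21 with overlapping groups. In the authors' deposited table Pygl had a signed fold of -1.52, the minus sign standing for a lower level in Tsuru, with p = 0.0104. The median over the 7 glycogen genes was 0.15, with 6 positive.

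**Figure D3:**
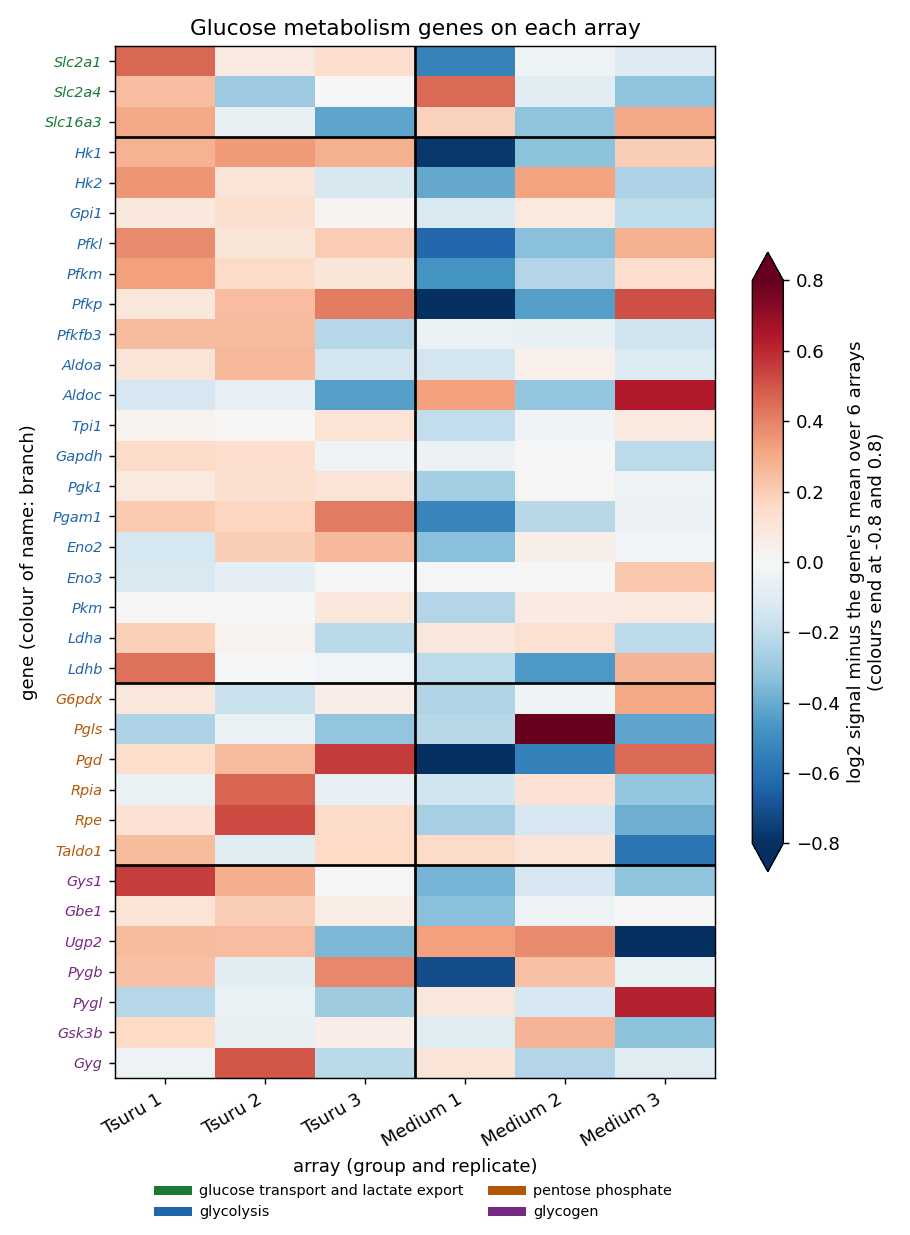
Each of the 34 genes (rows, in 4 branches parted by black lines) on each array (columns, Tsuru on the left), as the log2 signal minus the gene's mean over 6 arrays, in a scale that ends at -0.8 and 0.8. Medium replicate 1 is the lowest array for 17 of the 34 genes. The pale or red cells of Medium replicate 3 at Pfkl, Pfkm, Pfkp and Pgd show where it reaches the Tsuru arrays, and that at Hk1 where it comes close to them.

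Across branches, Medium replicate 1 was the array most often lowest. The median deviation of the 34 genes from their 6-array means was 0.15, 0.11 and 0.04 on the Tsuru arrays, against -0.22, -0.03 and -0.05 on the Medium arrays. Medium replicate 1 was the lowest array for 17 of 34 genes (50.0%), compared with 24.0% of all clusters and 37.6% of those with a mean log2 signal of at least 6. Without it, the median difference was 0.19 in the transport branch, 0.13 in glycolysis, 0.28 in the pentose phosphate branch and 0.14 in the glycogen branch. The median of clusters with a mean log2 signal of at least 6 was then 0.06. In the same fit 2 of the 34 genes, Rpe and Gys1, were called higher at an unadjusted p under 0.05. Of all 22206 clusters 1990 passed in either direction, 48.5% of them higher. The summed log2 signal of 10 adipocyte markers was also higher in Tsuru arrays, at 137.31 to 140.37, than in Medium arrays, at 133.41 to 137.09. The largest differences were those of Cfd, 1.09, and Plin1, 0.90. Of the 10, 8 were positive, with a median of 0.21, and Lep (-0.26, at or below background) and Pparg (-0.03) were negative. The part of these markers in the differences of the 34 genes was not tested.

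The log2 signals of 2 genes were also set against each other within each array, in 7 pairs chosen after the values were seen. In 5 pairs the genes encode forms of the same enzyme. There, the Tsuru arrays were higher than the Medium arrays by 0.39 for Hk1 minus Hk2, by 0.07 for Pfkl minus Pfkm, by 0.26 for Ldhb minus Ldha and by 0.73 for Pygb minus Pygl, and Pfkl minus Pfkp differed by -0.04. In the other two pairs the genes encode different enzymes, and the differences were 0.66 for Pgd minus G6pdx and 0.20 for Gys1 minus Pygb. Exact two-sided permutation tests over the arrays gave p-values from 0.2 to 1.0, where 0.1 is the smallest that 3 against 3 arrays allow. These tests could not have passed 0.05 whatever the values.

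A wider list of 57 genes around these pathways gave 56 with a cluster of their own (Pfkfb2 is named only), covering other transporters, isozymes, regulators and glycogen-bound subunits. Of these, 38 were positive with a median difference of 0.11, and 4 were higher and 2 lower at an unadjusted p under 0.05, or 7.14% and 3.57%, close to the backgrounds of 5.75% and 5.38%. H6pd, which encodes the hexose phosphate dehydrogenase that runs the oxidative pentose phosphate steps inside the endoplasmic reticulum, had the smallest p. It read 11.49, 11.28 and 11.67 in Tsuru arrays, against 10.27, 10.76 and 11.04 in Medium arrays, with no overlap. The difference was 0.79 ± 0.22 (SE), a fold of 1.73 with an adjusted p of 0.352, it kept an unadjusted p under 0.05 in each of the 6 fits that leave out an array, and was 0.58 without Medium replicate 1.

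Slc37a4, whose product carries glucose-6-phosphate into the endoplasmic reticulum, read 5.90, 5.99 and 6.24 in Tsuru arrays, against 5.86, 5.52 and 5.55 in Medium arrays, a difference of 0.40 ± 0.18 (SE). Its adjusted p was 0.443, and its Medium mean of 5.64 lies under the 5.87 average of the negative control sets. Phkg2, a catalytic subunit gene of phosphorylase kinase, read 9.82, 9.59 and 9.63 in Tsuru arrays, against 9.37, 9.13 and 9.37 in Medium arrays and differed by 0.39 ± 0.17, with an adjusted p of 0.428. In both genes the groups are apart, and of the 6 fits that leave out an array, 1 kept the call of Slc37a4 (without Medium replicate 1) and 2 that of Phkg2 (without Medium replicate 1 or 3). Gys2, the liver-type glycogen synthase gene, read 5.94, 6.13 and 6.30 in Tsuru arrays, against 6.72, 6.48 and 6.46 in Medium arrays. Its difference was -0.43 ± 0.17, opposite in sign to that of Gys1, with an adjusted p of 0.412. It was called in 3 of those 6 fits and not without Medium replicate 1, Tsuru replicate 1 or Tsuru replicate 2. Its signal is low, with a Tsuru mean of 6.12 near the 5.87 average of the negative control sets. Ppp1r3e, which encodes a subunit that directs a phosphatase to glycogen, was lower at an unadjusted p of 0.00695, but all 6 of its values lay under the background sets and no fold is given. The remaining called gene, Ppp1r3c, which encodes another such subunit and was named after its values were seen, differed by 0.68 ± 0.25 with 13.05, 13.21 and 12.87 in Tsuru arrays, against 11.84, 12.39 and 12.87 in Medium arrays. Its Medium values are laid out like those of Pfkp and Pgd, with replicate 3 at the level of the Tsuru arrays. The unadjusted p was 0.0225 and the adjusted p 0.394, 3 of the 6 fits that leave out an array kept the call, and the difference was 0.41, uncalled, without Medium replicate 1.

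Of 8 genes known to respond to low oxygen that lie outside glycolysis, 7 were positive, with a median difference of 0.38. Over clusters with a mean log2 signal of at least 6 the median was 0.10. By limma, 2 of the 8 (25.0%) were higher at an unadjusted p under 0.05. The background for that call is 5.75% of all clusters and 9.92% of those at that level. Egln3, which encodes an oxygen-sensing hydroxylase, differed by 0.41 ± 0.17 (SE) with groups apart. Bnip3, a mitophagy receptor gene, differed by 0.67 ± 0.27 with overlapping groups. Their adjusted p-values were 0.42 and 0.411. Of the others, Adm differed by 0.46 ± 0.23, Ddit4 by 0.38 ± 0.21, Vegfa by 0.08 ± 0.27, Ankrd37 by 0.08 ± 0.28 and Car9 by -0.30 ± 0.27. Ndrg1 differed by 0.39 but lay at or below background on all 6 arrays. Medium replicate 1 was the lowest array for 4 of the 8, Bnip3, Adm, Ddit4 and Ndrg1, and Medium replicate 3 for the others. For Bnip3, Adm and Ddit4, Medium replicate 3 read 12.43, 9.63 and 11.04. The Tsuru arrays read 12.28 to 12.62, 9.55 to 9.61 and 10.86 to 11.04 for these 3 genes.

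The authors' deposited table holds group averages that differ from the means of the deposited arrays, so its values were set beside these. It is another reading of the same groups, so a match between both is not independent support. At its own threshold, p under 0.05 and a fold above 1.1, it calls 7 of the 34 genes, 6 higher and 1 lower, where 11.9% of all clusters pass. All 5 genes called from the arrays are among them. The others are Gbe1, with a fold of 1.2 and p = 0.049 in the authors' deposited table, and Pygl. The sign was the same for 28 of 34 genes, and opposite for Slc2a4, Pkm, Ldha, G6pdx, Pgls and Ugp2. In the authors' deposited table the folds of the called genes were 1.24 for Slc2a1, 1.54 for Hk1, 1.37 for Pgam1, 1.37 for Rpe and 1.59 for Gys1.

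**Figure D4:**
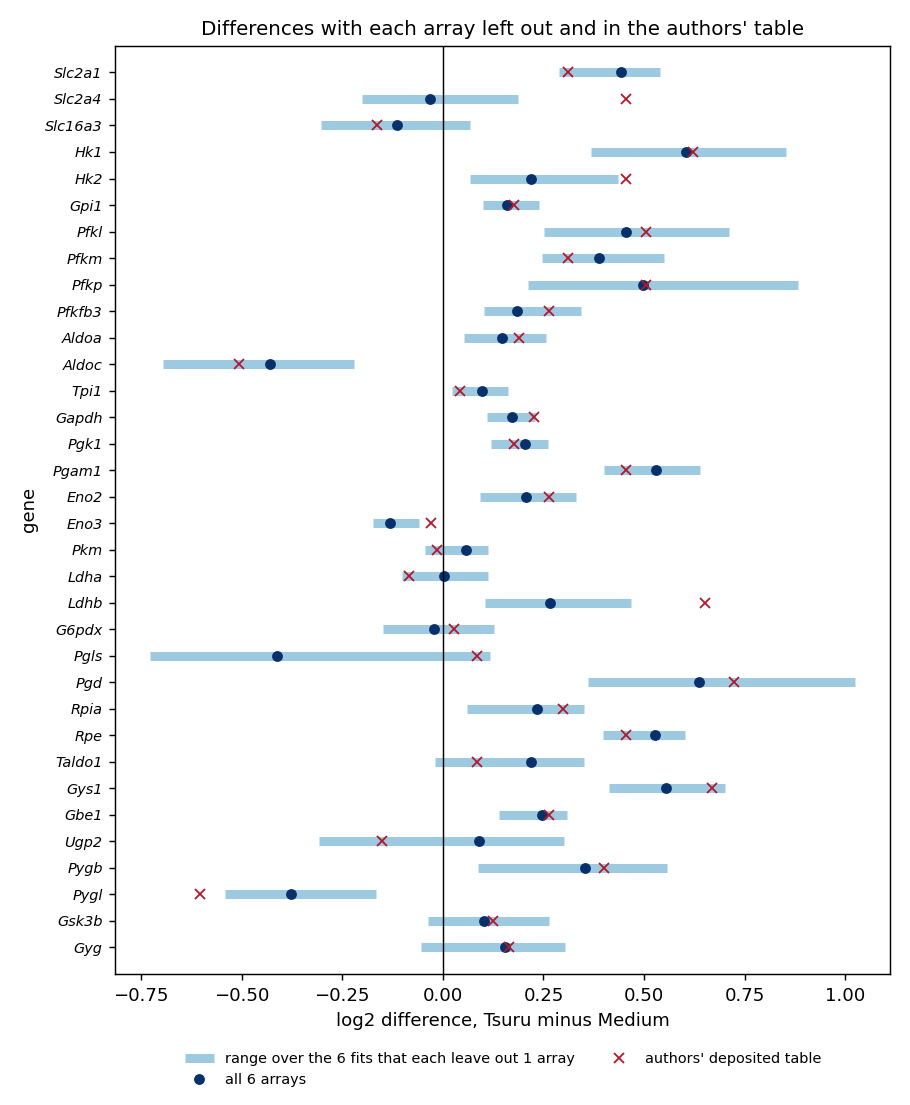
For each of the 34 genes, the log2 difference, Tsuru minus Medium, with all 6 arrays (dots), the range over the 6 fits that each leave out 1 array (bars) and the authors' deposited table (crosses). The bars are widest for Pgls (-0.73 to 0.12), Pfkp (0.21 to 0.88), Pgd (0.36 to 1.02) and Ugp2 (-0.31 to 0.30), and those of the called genes Pgam1, Rpe and Gys1 run from 0.40 to 0.64, 0.40 to 0.60 and 0.41 to 0.70.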

How the data were processed

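Groups and replicate numbers came from the sample titles. Per the series design text and the submitters' processing notes, the authors made the deposited log2 signals by SST-RMA, a probe-level adjustment and then RMA, in Transcriptome Analysis Console version 4.0.2. The authors' deposited table adds log2 group averages, a signed fold change (a score below -1 where lower) and p-values of an ANOVA moderated by eBayes, per the file headers and the design text. Its averages lay within 0.01 of the array means for 5.26% of clusters in the Tsuru and 4.83% in the Medium group. Of 28846 probe sets, 6640 control sets were left out. No source used here names a genome build for the array.

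Each of the 22206 clusters went into limma (version 3.58.1, R version 4.3.3) through lmFit and eBayes, as Tsuru minus Medium, with Benjamini-Hochberg adjustment over all clusters. Errors are moderated standard errors. The median standard error was 0.195, and 6 arrays limit the precision. The fit was run on simulated data with independent normal noise and known shifts. These data held no outlying array, so the run does not bear on calls that hang on a single array. The genes and lists were chosen with earlier results of these data known. All matched genes of the 4 branches are named, and of the wider list those called at an unadjusted p under 0.05 whose groups are apart. Alternatives were other normalizations, array weights, a variance trend, no eBayes, a filter on dim clusters, a replicate block, the authors' table and each array left out. No scan date or batch was known. The table of filtered clusters repeats rows of the full one and was not used.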

Additional observations from a re-analysis of the deposited data

How the results depend on the processing

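None of the alternatives brought any of the 34 genes to an adjusted p under 0.05; the lowest was 0.0812, for Pgd without Medium replicate 3. Over all clusters the count at an unadjusted p under 0.05 was 2472, and 1309 with clusters under a log2 signal of 6 left out. It was 2175 with cyclic loess, 1948 without the empirical Bayes step and 1659 to 3616 with 1 array left out. The count at an adjusted p under 0.05 was 0, and leaving out 1 array gave 0 to 25, the 25 without Medium replicate 3. The genes called higher numbered 5; they were 3 with cyclic loess, without Slc2a1 and Rpe, and 3 without the empirical Bayes step, without Slc2a1 and Hk1, and 2 to 9 with 1 array left out (9 without Medium replicate 3; 2 without Medium replicate 1 or without Tsuru replicate 1, 2 or 3). The genes called lower numbered 0; there was 1 in the authors' deposited table and 0 to 2 with 1 array left out (2 without Medium replicate 2, Aldoc and Pygl). The median log2 difference by branch moved as follows: for glucose transport and lactate export (-0.031) it ran from -0.16 to 0.19 with 1 array left out, and 0.31 in the authors' deposited table, and 0.21 with clusters under a log2 signal of 6 left out; for glycolysis (0.19) it ran from 0.13 to 0.24 with 1 array left out; for pentose phosphate (0.23) it ran from 0.13 to 0.34 with 1 array left out; for glycogen (0.15) it ran from 0.14 to 0.29 with 1 array left out, and 0.25 with clusters under a log2 signal of 6 left out. The cause of these shifts was not tested. Some alternatives also leave fewer clusters or arrays. Cyclic loess took the median of clusters with a signal of at least 6 to -0.00 and that of the 34 genes to 0.11. The share of higher calls among clusters at an unadjusted p under 0.05 was 51.7%, 72.6% with array medians subtracted and 75.8% with dim clusters left out.

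Same-numbered samples deviated together at r = 0.00198, 0.00593 and 0.186, and not every sample correlated best with its own number. With the replicate block 2775 clusters passed an unadjusted p of 0.05, and the genes called higher again numbered 5: Pgd gained an unadjusted p under 0.05 with it (adjusted p = 0.294) and Slc2a1 lost it (adjusted p = 0.439), at unmoved differences of 0.64 and 0.44. Some uncalled differences, among them that of Pgls at -0.41, changed sign: with array medians subtracted, G6pdx (0.058) and Slc2a4 (0.049); with array weights, Slc16a3 (0.037) and Slc2a4 (0.018); in the authors' deposited table, G6pdx (0.029), Ldha (-0.084), Pgls (0.084), Pkm (-0.014), Slc2a4 (0.45) and Ugp2 (-0.15). So did, with cyclic loess, Ldha (-0.048) and Ugp2 (-0.033); with quantile normalization, Ugp2 (-0.0065). With 1 array left out, the sign also turned within these ranges: G6pdx from -0.15 to 0.13, Gsk3b from -0.036 to 0.26, Gyg from -0.053 to 0.30, Ldha from -0.10 to 0.11, Pgls from -0.73 to 0.12, Pkm from -0.043 to 0.11, Slc16a3 from -0.30 to 0.068, Slc2a4 from -0.20 to 0.19, Taldo1 from -0.020 to 0.35, Ugp2 from -0.31 to 0.30. Averaging a gene's clusters changed no value, since each gene had a single one. Depth does not apply to arrays; Aldoc, Slc16a3, Eno2 and Pygl are limited by signals near background.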
